A study of Homo sapiens with 6 samples.

Results

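Ribosome biogenesis and nucleolar genes encode the proteins that transcribe, fold, modify and cut the ribosomal RNA precursor and build it into the 40S and 60S subunits. The set described here holds 52 genes, chosen by symbol from knowledge of the pathway and typical of MYC targets, out of 58735 genes in the deposited table. Earlier results of these data were known when the set was chosen. All 52 symbols were found, each on 1 row. The samples were Raji cells, a human B-cell line from a Burkitt lymphoma, carrying a GFP and firefly luciferase (GFP-ffluc) reporter in both groups. For 3 libraries, cells were incubated overnight (37 °C) in 1 nM bryostatin-1, a marine natural product that modulates protein kinase C. Cells of the other 3 libraries received the solvent DMSO. Values are FPKM, which scale fragments by gene length and library size, from polyadenylated RNA.

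Ribosome assembly starts in the nucleolus, where RNA polymerase I makes a long precursor of 18S, 5.8S and 28S rRNA. Small nucleolar RNPs of the box C/D class guide ribose methylation and those of the box H/ACA class guide pseudouridylation. The small-subunit processome folds and cuts the 18S region, and a separate series of factors matures the 60S subunit. In Burkitt lymphoma the MYC gene is joined to an immunoglobulin locus, and MYC binds E-box elements, whose canonical form is CACGTG, at many genes of ribosome assembly.

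The libraries held 19405370 to 24468270 reads on genes, recovered from the FPKM values. The labels do not say whether replicates were separate cultures, so the p-values speak for the variation among these 6 libraries, which may be technical. The B-cell markers CD79A and PAX5 were above 1 FPKM on average. Markers of T, NK, myeloid, stromal and epithelial cells were near 0 apart from TRAC at 7.79 and NKG7 at 2.87 FPKM on average, and CD8B, CD2, NCAM1, KLRD1, NCR1, S100A8, MPO, EPCAM and COL1A2 were listed at 0 in every library. The summed level of the 8 T-cell markers was 3.53 to 13.6 FPKM with bryostatin and 3.26 to 11.9 FPKM with DMSO. Among the controls, DMSO replicate 3 stood apart from DMSO replicates 1 and 2, and values without it stand beside many of the results. In bulk RNA, fewer cells of a type and less RNA per cell cannot be told apart.

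Ribosome biogenesis transcripts lay slightly higher with bryostatin across nearly the whole set, by at most 1.64-fold on the FPKM + 1 scale in any gene, and no single gene passed the test. Of the 51 members with a mean of at least 1 FPKM, 49 had a higher mean on the log2(FPKM + 1) scale with bryostatin, beside 53.9% of all genes tested. The median log2 change of the members was 0.25, from -0.06 for NOB1 to 0.71 for GAR1, against 0.02 over all 11071 genes. In limma, with Benjamini-Hochberg adjustment over those 11071 genes, 0 members and 0 genes in all (0%) had an adjusted p under 0.05, and the smallest adjusted p of a member was 0.216. At an unadjusted p under 0.05, 21 members were higher and 0 lower, where 10.5% of all genes were higher and 7.18% lower. In 22 members each bryostatin library lay above all DMSO libraries, beside 12.9% of all genes. On the log2(FPKM + 1) scale, the 95% interval excluded a 2-fold difference in either direction for each of the 51 tested members. The same held for 10300 of the 11071 genes tested. The scaling mattered for the background: by the unadjusted p, TPM gave 848 genes that were higher and 1099 that were lower, instead of 1159 and 795, and 15 members that were higher.

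Many promoters of the set carried a sequence feature for which MYC targets are known. The genes were chosen by name and are typical of MYC targets, so its frequency here is not independent of that choice. RefSeq promoter windows (GRCh38.p14), reaching from 250 bases before to 50 bases after an annotated start, were at hand for 44 members. BOP1, MPHOSPH10, NOLC1, NOP58, RRP12, RRP1B, RRS1 and TCOF1 were not matched. The canonical E-box, which reads CACGTG on both strands, was found in 23 of the 44 members (52.3%), in 13.2% of the 7723 tested genes with a window and in 8.77% of all 27305 genes in the promoter table. Counted by window, 45.3% of the members' 53 windows and 7.26% of all 35116 held it. The related hexamer CACGCG, searched on both strands as CACGCG or CGCGTG, was found in 11 of 44 members and 23.5% of tested genes. The heptamer CCGGAAG, searched with its complement CTTCCGG, was found in 36.4% of members and 25.5% of tested genes. A match describes letters in a window and is not a measured binding site.

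The E-boxes of the members also sat at a particular place. Of the 28 matches in their windows 16 (57.1%) began within the first 50 bases after the start, against 10.8% of the 1257 matches in windows of tested genes. A further 5 began within the 50 bases before it. Where a gene has several starts its windows can overlap, as for EBNA1BP2, and 1 E-box is then counted at each start. For 9 members described further on, 30 bases around an E-box are shown as examples, with the E-box in capitals and the strand of the gene read 5′ to 3′.
GAR1: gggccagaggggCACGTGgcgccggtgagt
RRP9: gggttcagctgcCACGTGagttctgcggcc
BYSL: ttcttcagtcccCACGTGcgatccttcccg
FBL: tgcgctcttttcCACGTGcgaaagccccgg
IMP4: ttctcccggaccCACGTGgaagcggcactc
UTP18: gcagcgaggttcCACGTGagcgcctgcgtt
GNL3: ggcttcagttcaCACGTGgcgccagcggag
LYAR: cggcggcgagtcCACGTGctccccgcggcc
SRM: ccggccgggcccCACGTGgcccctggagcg
The GAR1 stretch lies at chr4:109815781-109815810 on the plus strand and its E-box begins at base 32, the start being base 1. The RRP9 stretch lies at chr3:51941892-51941921 on the minus strand and its E-box begins at base -5. Those of BYSL, FBL, IMP4, UTP18 and GNL3 begin at bases 29, 7, 16, 5 and 7, and those of LYAR and SRM at bases -64 and -199. GAR1, IMP4, GNL3 and LYAR had 2 windows each, of which 1 held CACGTG. Their positions refer to that annotated start.

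ODC1, NOP10, IMP4 and UTP18 held a pair of E-boxes each. In IMP4 and UTP18 the others began at bases -203 and -89. In ODC1 the pair lay on the minus strand of chromosome 2, at chr2:10448024-10448053 and chr2:10447990-10448019, beginning at bases -29 and 6 of one of its annotated starts.
ODC1, first: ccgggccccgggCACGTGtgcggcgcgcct
ODC1, second: ggcctgcggagaCACGTGgtcgccgagcgg
In NOP10 both lay before the start, at bases -170 and -11, within the 250 bases at chr15:34343137-34343386 on the minus strand.
NOP10: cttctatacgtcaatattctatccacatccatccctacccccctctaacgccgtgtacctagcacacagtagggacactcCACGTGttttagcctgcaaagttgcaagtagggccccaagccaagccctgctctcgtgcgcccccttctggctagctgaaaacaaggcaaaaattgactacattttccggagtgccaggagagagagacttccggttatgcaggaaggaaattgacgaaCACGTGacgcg
Among tested members, the median log2 change was 0.25 for the 22 with an E-box and 0.25 for the 21 without one in these windows.

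**Figure D1:**
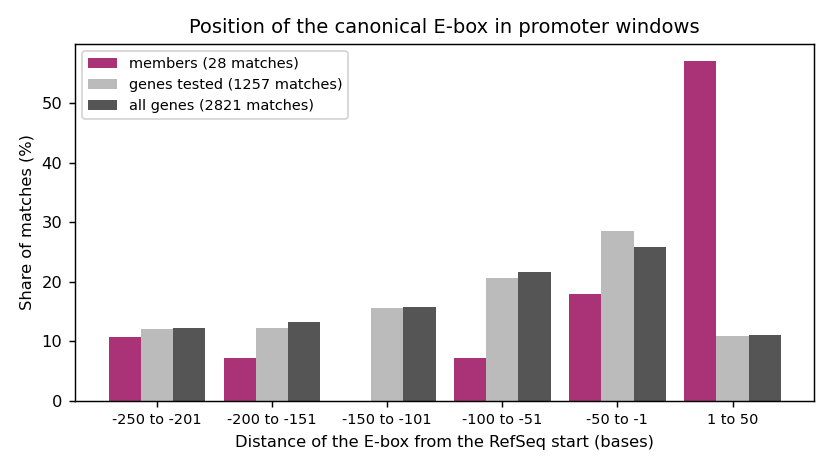
Share of canonical E-box matches (y axis, percent) by distance from the RefSeq start in bins of 50 bases (x axis), for members, tested genes and all genes of the promoter table. The bin from 1 to 50 holds 57.1% of the members' matches and 10.8% of those of tested genes.

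Box H/ACA proteins had the highest median of the 7 role groups, an order that did not hold without DMSO replicate 3. All 4 members were higher with bryostatin, all 4 without overlap between the groups and all 4 with an unadjusted p under 0.05, with a median log2 change of 0.49. Over all genes tested, 53.9% were higher on average, 12.9% were higher without overlap and 10.5% were higher at that p. The box H/ACA proteins bind the H/ACA guide RNAs, and DKC1, NHP2, NOP10 and GAR1 are also part of telomerase. GAR1, which joins the particle last (ENSG00000109534, chromosome 4, 109815510 to 109824740, hg38), was at 26.5, 22.0 and 19.6 FPKM in bryostatin replicates 1 to 3, against 13.0, 13.3 and 13.8 FPKM in DMSO replicates 1 to 3. The groups did not overlap, and the DMSO libraries lay close together. GAR1 averaged 22.7 ± 3.46 FPKM with bryostatin and 13.4 ± 0.373 FPKM with DMSO (SD, n = 3 each), a 1.64-fold difference on the FPKM + 1 scale with a log2 change of 0.71, a 95% interval from 0.44 to 0.98 and an adjusted p of 0.216 in limma.

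NHP2, which binds the guide RNA directly (ENSG00000145912, chromosome 5, 178149460 to 178153967), was at 103.8, 107.5 and 89.0 FPKM with bryostatin and 71.1, 69.1 and 57.3 FPKM with DMSO. Here DMSO replicate 3 was the lowest of all 6 libraries. The log2 change was 0.60 with a standard error of 0.12 (adjusted p = 0.216, limma). Of the 1510 exon bases of NHP2, 414 are also exons of RMND5B on the other strand, which was at 5.83 to 7.24 FPKM, and the strand setting of the counting is not given in the sources used here.

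NOP10, a small protein that links NHP2 and DKC1, was at 135.8, 107.0 and 116.9 FPKM with bryostatin and 89.6, 99.5 and 85.8 FPKM with DMSO, a log2 change of 0.38. DKC1, the pseudouridine synthase itself, was at 45.4, 39.6 and 38.3 FPKM with bryostatin and 31.5, 32.2 and 37.4 FPKM with DMSO, a log2 change of 0.28. Both were without overlap between the groups, DKC1 by a narrow margin (adjusted p = 0.226 and 0.253, limma). The list median per library, as log2(FPKM + 1) minus the mean of the 6 libraries, was 0.37, 0.21 and 0.15 with bryostatin and -0.23, -0.21 and -0.30 with DMSO. Of the 7 role groups, H/ACA was the 1 in which DMSO replicate 3 lay below the other DMSO libraries by that median. Without it, the median log2 change was 0.43, below the 0.44 of box C/D and the 0.46 of the scaffold genes, and without bryostatin replicate 1 GAR1 had 0.60 and NHP2 0.57.

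**Figure D2:**
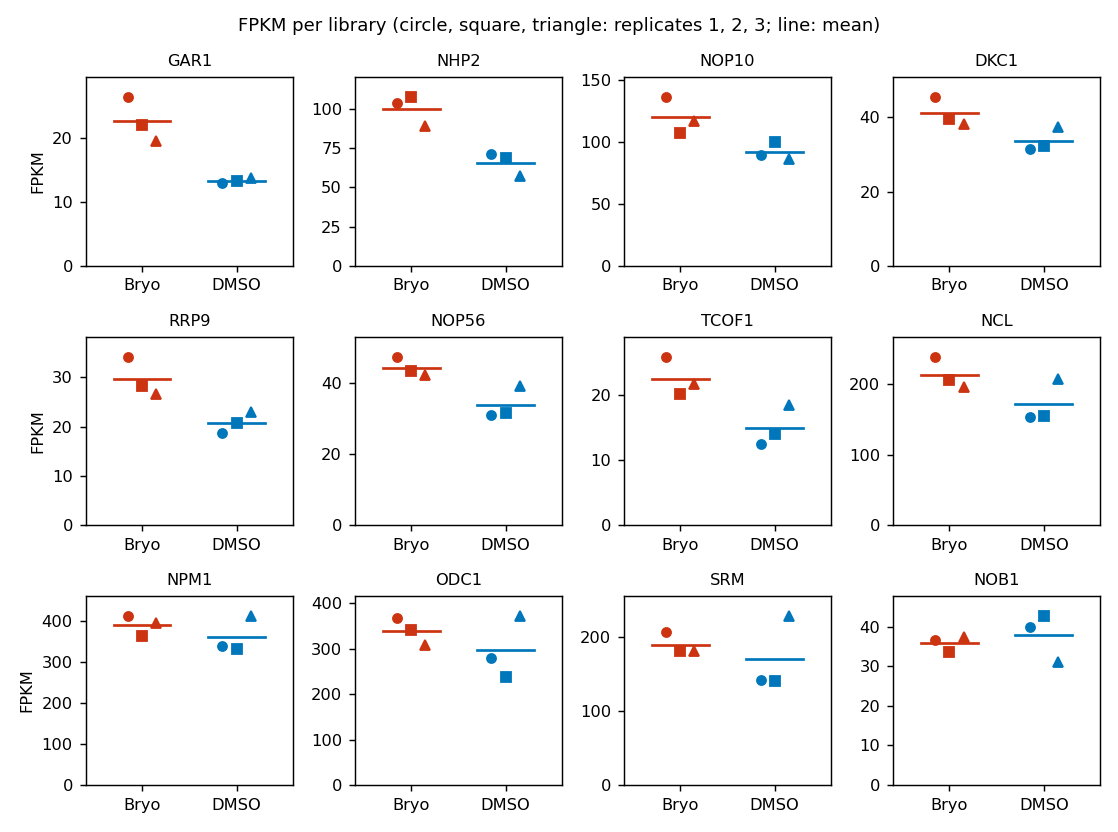
FPKM in each library (y axis from 0) for 12 members, bryostatin left and DMSO right, with the replicate shown by the marker and the group mean by a line. The H/ACA genes in the top row separate the groups, whereas in NPM1, ODC1 and SRM the triangle of DMSO replicate 3 lies at or above the bryostatin libraries.

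Box C/D proteins had a median log2 change of 0.33, or 0.44 without DMSO replicate 3. In 3 of 4 members all bryostatin libraries lay above all DMSO libraries, beside 12.9% of all genes. RRP9, the protein specific to the U3 particle (ENSG00000114767, chromosome 3, 51933430 to 51941941), was at 34.1, 28.2 and 26.7 FPKM with bryostatin and 18.7, 20.8 and 22.9 FPKM with DMSO, a log2 change of 0.49. NOP56, a core protein of all C/D particles, was at 47.5, 43.6 and 42.4 FPKM with bryostatin and 31.0, 31.6 and 39.3 FPKM with DMSO, a log2 change of 0.39. FBL, the methyltransferase fibrillarin, was at 148.6, 135.8 and 129.0 FPKM with bryostatin and 113.3, 113.7 and 111.7 FPKM with DMSO, a log2 change of 0.28. None of these passed in limma (adjusted p = 0.216, 0.217 and 0.227). DMSO replicate 3 was nearest to the bryostatin libraries for NOP56 and lowest of all libraries for FBL. For NOP58, another core protein, DMSO replicate 3 at 51.4 FPKM lay inside the bryostatin range of 46.0 to 58.8 FPKM. The log2 change of NOP58 was 0.26 with that library and 0.40 without it. Without DMSO replicate 3, NOP56 was 1 of 2 members with an adjusted p under 0.05 (0.0464, limma), with a log2 change of 0.49.

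Nucleolar scaffold proteins and cofactors of rRNA transcription had a median log2 change of 0.32, or 0.46 without DMSO replicate 3, but only TCOF1 was without overlap in the 6 libraries. TCOF1 encodes treacle, which acts with the RNA polymerase I factor UBTF (ENSG00000070814, chromosome 5, 150357629 to 150400308). It was at 25.9, 20.1 and 21.7 FPKM with bryostatin and 12.5, 14.1 and 18.6 FPKM with DMSO, 1.48-fold higher on the FPKM + 1 scale (adjusted p = 0.217, limma). Without DMSO replicate 3 its log2 change was 0.72, instead of 0.57, with an adjusted p of 0.0493 in limma. LYAR, a nucleolar zinc-finger protein, was at 46.9, 32.5 and 33.4 FPKM with bryostatin and 24.1, 26.5 and 33.8 FPKM with DMSO, a log2 change of 0.40. Its bryostatin replicate 1 was far above the other libraries, and without that replicate the log2 change was 0.24.

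The 2 most abundant scaffold genes overlapped between the groups. NPM1, nucleophosmin, was at 411.3, 362.6 and 394.9 FPKM with bryostatin and 339.3, 332.8 and 411.3 FPKM with DMSO. NCL, nucleolin, was at 238.2, 205.7 and 195.9 FPKM with bryostatin and 153.3, 154.2 and 207.4 FPKM with DMSO. In both, DMSO replicate 3 lay in the bryostatin range and the other DMSO libraries below it. NPM1 had a log2 change of 0.11 with an interval from -0.16 to 0.38, and NCL one of 0.32 with an interval from -0.02 to 0.67 (adjusted p = 0.616 and 0.308, limma). Without DMSO replicate 3 the log2 changes were 0.21 and 0.46, and for NPM1 the value was 0.07 without bryostatin replicate 1, 0.07 without DMSO replicate 1 and 0.06 without DMSO replicate 2. NPM1 has processed pseudogenes, and how reads that match such copies were counted is not given in the sources used here.

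Small-subunit processome genes were all higher on average, 12 of 12, with a median log2 change of 0.21, or 0.32 without DMSO replicate 3. At an unadjusted p under 0.05, 3 were higher, beside 10.5% of all genes. Without that library 8 were higher, beside 15.6% of all genes. In the 6 libraries 3 were higher without overlap, IMP4, UTP18 and NOP14, beside 12.9% of all genes. IMP4, which binds U3 with IMP3 and MPHOSPH10, was at 140.7, 135.1 and 141.5 FPKM with bryostatin and 105.5, 109.0 and 125.0 FPKM with DMSO, a log2 change of 0.30. UTP18, a WD-repeat subunit, was at 39.4, 33.5 and 34.4 FPKM with bryostatin and 27.0, 28.4 and 31.9 FPKM with DMSO, a log2 change of 0.29. Both separated the groups without passing the test (adjusted p = 0.227 and 0.241, limma). IMP3 and MPHOSPH10, partners of IMP4, had overlap between the groups, with log2 changes of 0.09 and 0.17, and 0.16 and 0.33 without DMSO replicate 3. DMSO replicate 3 exceeded both other DMSO libraries in 12 of 12 genes of this group, and for MPHOSPH10 and WDR75 it was the highest of all 6.

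Later steps of 40S maturation had a median log2 change of 0.23. BYSL, RRP12 and TSR1 were higher without overlap, beside 12.9% of all genes. BYSL, which stays with the pre-40S particle during export, was at 31.4, 27.9 and 29.9 FPKM with bryostatin and 24.7, 25.4 and 22.6 FPKM with DMSO, a log2 change of 0.28. RRP12, an export factor, was at 9.37, 7.24 and 7.35 FPKM with bryostatin and 6.16, 6.09 and 6.84 FPKM with DMSO, also 0.28 (adjusted p = 0.226 and 0.263, limma). Without bryostatin replicate 1, RRP12 had 0.17. NOB1, the nuclease that makes the 3′ end of 18S rRNA, was the exception. It was at 36.6, 33.7 and 37.5 FPKM with bryostatin and 39.9, 42.6 and 31.1 FPKM with DMSO. The 2 highest and the lowest libraries were all DMSO, the log2 change was -0.06, and its sign turned to 0.027 without DMSO replicate 2. Without DMSO replicate 3 it was -0.19.

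The 60S assembly factors formed the largest group, with 17 of 18 tested genes higher on average, 8 without overlap and a median log2 change of 0.23. Of all genes tested, 53.9% were higher on average and 12.9% were higher without overlap. NIP7, which works with late nucleolar pre-60S particles, was at 16.7, 13.2 and 13.6 FPKM with bryostatin and 10.2, 10.8 and 10.9 FPKM with DMSO, a log2 change of 0.41. NOP16 was at 26.5, 20.1 and 20.9 FPKM with bryostatin and 14.8, 16.6 and 16.6 FPKM with DMSO, a log2 change of 0.46. In both, all bryostatin libraries lay above all DMSO libraries (adjusted p = 0.217 for each, limma). BOP1 and PES1, which form the PeBoW complex with WDR12, had log2 changes of 0.36 and 0.22 without overlap, whereas WDR12 had 0.13 with overlap and 0.19 without DMSO replicate 3. EBNA1BP2 and NOC2L were without overlap as well, with log2 changes of 0.50 and 0.25, as were WDR74 and RRP1 with 0.28 and 0.22. MRTO4, which holds the place of the stalk protein on the pre-60S particle, had a log2 change of 0.44, but DMSO replicate 3 at 52.4 FPKM lay inside the bryostatin range of 50.6 to 64.9 FPKM, and without it the log2 change was 0.62.

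GNL3, nucleostemin, was the most abundant 60S factor among the members and did not separate the groups. It was at 65.3, 62.4 and 62.4 FPKM with bryostatin and 51.6, 53.5 and 70.0 FPKM with DMSO. Its log2 change was 0.13, or 0.27 without DMSO replicate 3. That library was the highest library here, as it was for NOC3L and for GNL3L, the paralog of GNL3. GNL3L had a log2 change of -0.05 and was, with NOB1, 1 of 2 tested members with a lower mean with bryostatin.

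A single member was too low to be tested. NOP2, which methylates 28S rRNA, was at 0.472, 0.480 and 0.494 FPKM with bryostatin and 0.433, 0.526 and 0.213 FPKM with DMSO, or 20 to 54 reads per library. The next lowest member, UTP15, averaged 5.03 FPKM. Of the 4687 exon bases of NOP2 in GENCODE 29, 2550 (54.4%) are shared on the same strand with the protein-coding gene AC006064.6, which was listed at 0 in every library. The rule used for reads on shared exons is not given in the sources used here, and its part in this low value was not tested. PPAN shares 1447 of its 2583 exon bases with PPAN-P2RY11, which was at 0.103 FPKM or less. PPAN was at 8.22, 8.53 and 7.32 FPKM with bryostatin and 5.81, 7.97 and 4.97 FPKM with DMSO. In all, 30 of the 52 members share exon bases with some other gene, and 10 share over 20% of them.

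The growth-linked genes ODC1, SRM and PA2G4 showed the split among the DMSO libraries most plainly. ODC1, ornithine decarboxylase, which starts polyamine synthesis, was at 367.0, 340.9 and 308.1 FPKM with bryostatin and 280.6, 237.7 and 371.3 FPKM with DMSO. SRM, spermidine synthase, was at 205.8, 180.1 and 180.9 FPKM with bryostatin and 140.9, 139.8 and 227.0 FPKM with DMSO. In both, DMSO replicate 3 was the highest of the 6 libraries and the other DMSO replicates were the lowest. PA2G4, a growth-regulated protein that associates with ribosomes, was at 55.9, 46.9 and 49.7 FPKM with bryostatin and 38.4, 43.2 and 54.6 FPKM with DMSO. The log2 changes were 0.21, 0.19 and 0.17 (adjusted p = 0.522, 0.616 and 0.540, limma), and 0.39, 0.42 and 0.31 without DMSO replicate 3. Without DMSO replicate 2 they were 0.07, 0.08 and 0.14.

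**Figure D3:**
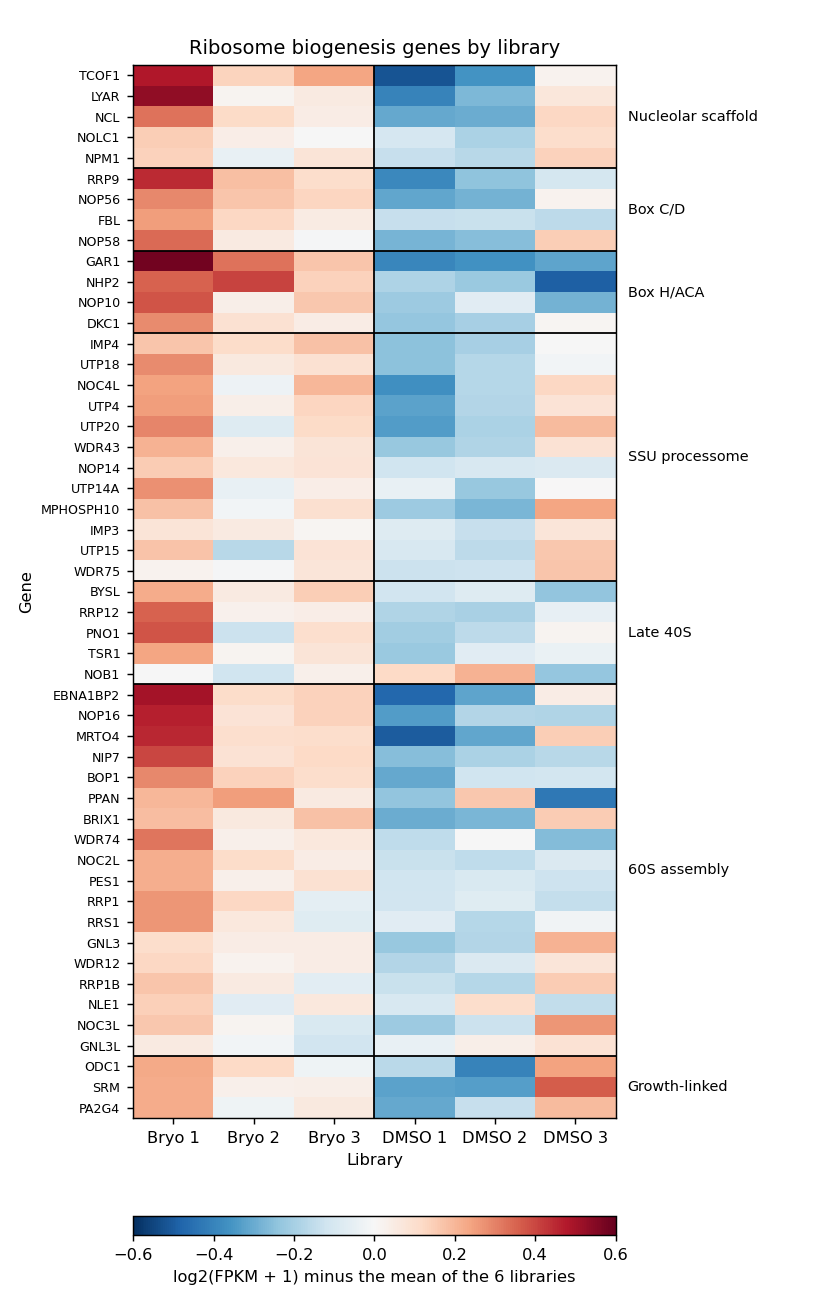
log2(FPKM + 1) of each tested member minus its mean over the 6 libraries (colour, saturated at 0.6), with genes down the page by role and libraries across. Bryostatin replicate 1 is the highest library for 40 of 51 genes, and the column of DMSO replicate 3 mixes high genes (SRM, NOC3L) with low ones (NHP2, PPAN).

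The size of the difference across the set moved with the libraries included. Bryostatin replicate 1 was the highest of the 6 libraries for 40 of the 51 tested members. DMSO replicates 1, 2 and 3 were the lowest for 28, 11 and 10. Centred on the 6-library mean, the median of the members was 0.24, 0.05 and 0.08 with bryostatin and -0.22, -0.17 and 0.02 with DMSO. DMSO replicate 3 lay below all bryostatin libraries for 25 members, inside their range for 19 and above it for 7. Without DMSO replicate 3 the median log2 change of the members was 0.31, 45 members were without overlap (26.8% of all genes), and NOP56 and TCOF1 had an adjusted p under 0.05, beside 1.77% of all genes higher and 0.641% lower. Without bryostatin replicate 1 the median log2 change was 0.17, 22 members were without overlap (14.9% of all genes), and 0 members passed, while 47 of 51 were still higher on average. Without DMSO replicate 1 the median log2 change was 0.20. The count of members at an unadjusted p under 0.05, 21 in the 6 libraries, was 36 without DMSO replicate 3, 13 without DMSO replicate 2, 11 without DMSO replicate 1 and 11 without bryostatin replicate 1. All of these were higher with bryostatin. Over all 11071 genes tested, 1159 were higher at that p in the 6 libraries. In the same omissions, in the same order, 1730, 1010, 641 and 560 were higher, so the background moved as well.

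**Figure D4:**
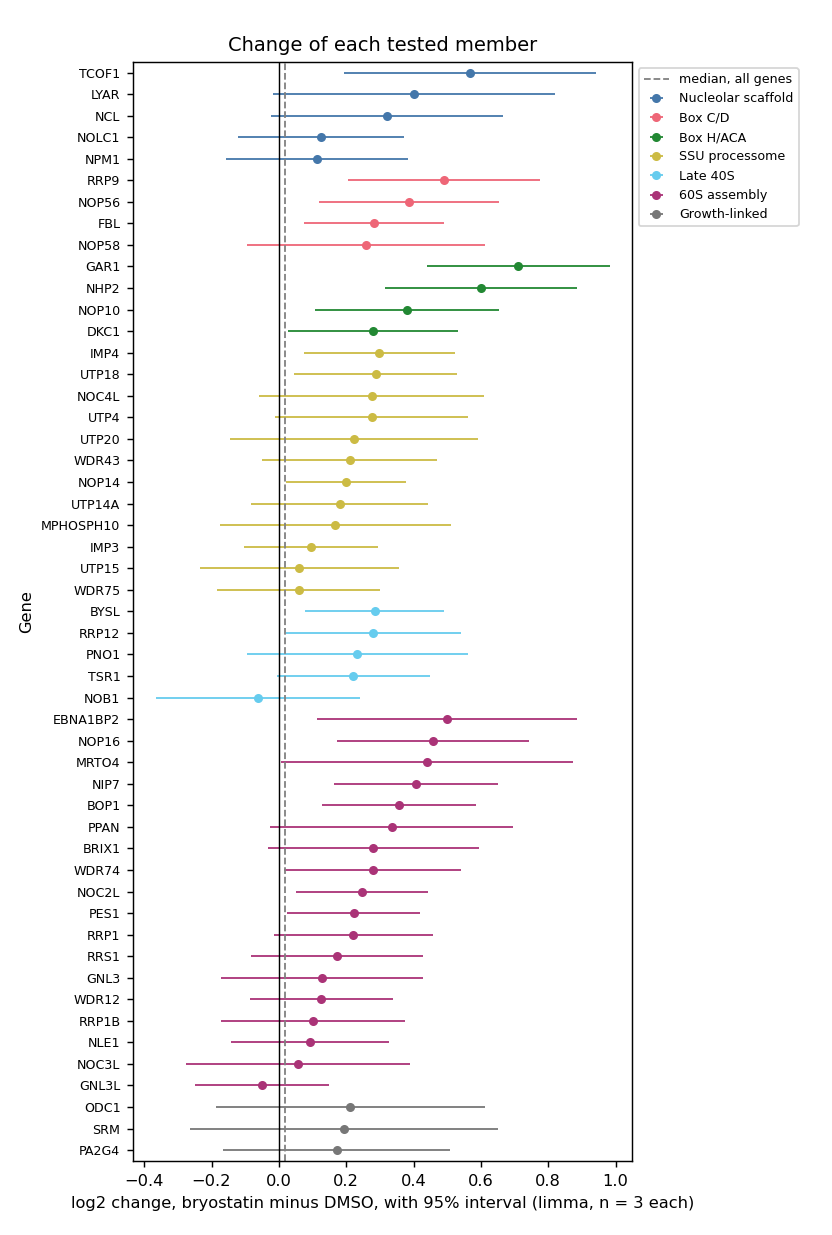
log2 change of each tested member (x axis, bryostatin minus DMSO) with its 95% interval from limma, grouped by role down the page. The dashed line is the median of all genes at 0.02, and the points run from -0.06 for NOB1 to 0.71 for GAR1.

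DMSO replicate 3 stood apart for proliferation markers as well. Their 15 genes had list medians of 0.47, 0.17 and 0.23 in bryostatin replicates 1 to 3 and -0.65, -0.41 and 0.24 in DMSO replicates 1 to 3, and all 15 had a higher mean with bryostatin. Their median log2 change was 0.57, against 0.25 for the members. At an unadjusted p under 0.05, 10 of 15 were higher, beside 10.5% of all genes, with 0 passing in limma. In the 6 libraries 4 of 15 were higher without overlap, beside 12.9% of all genes. Without DMSO replicate 3 the median log2 change was 0.87. In that run 10 of 15 were higher with an adjusted p under 0.05 in limma, beside 1.77% of all genes. Without DMSO replicate 1 the median was 0.35. The lowest change of the 15 was that of MKI67 and the highest, 0.79, that of AURKB, a mitotic kinase. MKI67, the proliferation antigen Ki-67, was at 35.2, 31.6 and 30.6 FPKM with bryostatin and 23.1, 28.01 and 37.8 FPKM with DMSO. Its DMSO libraries spanned the whole bryostatin range, and its log2 change of 0.15 turned to -0.0062 without DMSO replicate 1. The part of proliferation in the values of the ribosome biogenesis genes was not tested. MYC itself was at 102.2, 109.6 and 97.9 FPKM with bryostatin and 118.3, 98.0 and 135.6 FPKM with DMSO, with overlap and a log2 change of -0.17 (adjusted p = 0.5, limma). Of MYC and 8 of its partners or relatives, 4 were higher and 5 lower on average.

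Genes of the same pathway outside the set differed less. Of 116 further genes in 6 lists, 115 were found in the table and 112 were tested. Their median log2 change was 0.16, with 98 higher and 14 lower on average, and 0 passed in limma. At an unadjusted p under 0.05, 28 were higher and 0 lower, beside 10.5% and 7.18% of all genes. Without overlap 35 were higher and 1 lower, beside 12.9% and 10.7% of all genes. The difference between these genes and the 51 tested members was not tested, and both were chosen with results of these data known.

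Within these lists, the RNA exosome, which trims rRNA precursors, was highest, with 12 of 13 genes higher on average and a median log2 change of 0.29. EXOSC6 was at 15.6, 14.8 and 15.9 FPKM with bryostatin and 11.8, 10.4 and 13.2 FPKM with DMSO. EXOSC5 was at 36.2, 32.5 and 31.6 FPKM with bryostatin and 26.4, 26.8 and 27.6 FPKM with DMSO. Both were without overlap, whereas DIS3, a catalytic subunit, had a log2 change of -0.14. EXOSC10, also of this list, had 0.23. Factors that assemble small nucleolar RNPs had a median of 0.18, 7 of 9 being higher on average. RUVBL2, an AAA-type ATPase, was at 62.3, 52.3 and 50.9 FPKM with bryostatin and 37.6, 39.9 and 45.6 FPKM with DMSO. Its partner RUVBL1 was at 27.7, 27.3 and 23.1 FPKM with bryostatin and 19.0, 18.3 and 22.7 FPKM with DMSO. Neither overlapped between the groups, and neither passed (adjusted p = 0.217 and 0.227, limma).

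RNA polymerase I genes had a median log2 change of 0.14, 12 of 13 being higher on average. CD3EAP, a subunit of that polymerase, was at 3.53, 3.07 and 2.71 FPKM with bryostatin and 2.01, 2.01 and 2.40 FPKM with DMSO. UBTF, the upstream binding factor of rRNA genes, was at 51.6, 48.3 and 45.8 FPKM with bryostatin and 40.4, 40.01 and 43.6 FPKM with DMSO. Both were without overlap, with log2 changes of 0.38 and 0.23, whereas the initiation factor RRN3 had -0.02.

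Among 35 further 40S factors, 33 were higher on average with a median log2 change of 0.13. TSR2, a carrier of a small-subunit ribosomal protein, was at 23.8, 19.6 and 18.2 FPKM with bryostatin and 13.8, 13.6 and 12.01 FPKM with DMSO. EMG1, an 18S rRNA methyltransferase, was at 16.5, 12.4 and 12.9 FPKM with bryostatin and 8.33, 10.4 and 8.62 FPKM with DMSO. Their log2 changes of 0.60 and 0.55 were the largest of that list and came without overlap (adjusted p = 0.216 for each, limma).

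Among 35 further 60S factors, 28 were higher on average with a median of 0.14. SENP3, a SUMO protease of the nucleolus, was at 13.9, 11.7 and 10.6 FPKM with bryostatin and 7.74, 10.0 and 7.40 FPKM with DMSO. EIF6, which keeps the 60S from joining the 40S too early, was at 50.7, 40.2 and 46.1 FPKM with bryostatin and 35.1, 38.6 and 31.3 FPKM with DMSO. Both were without overlap, with log2 changes of 0.48 and 0.37. MDN1, the large AAA-type ATPase of the 60S pathway, had -0.20.

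Of the polyamine and hypusine enzymes beyond ODC1 and SRM, 7 were tested and 6 were higher on average, with a median log2 change of 0.16. DOHH, the last enzyme of hypusine synthesis, was at 16.5, 13.9 and 12.4 FPKM with bryostatin and 10.5, 10.4 and 8.48 FPKM with DMSO, without overlap. AZIN1, an antizyme inhibitor that preserves ornithine decarboxylase, was at 69.5, 60.9 and 62.3 FPKM with bryostatin and 50.5, 49.3 and 64.1 FPKM with DMSO, with overlap through DMSO replicate 3. SAT1, which starts polyamine breakdown, had a log2 change of -0.30 (adjusted p = 0.459, limma).

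The ribosomal proteins themselves were set beside the assembly genes. The 82 tested genes of cytosolic ribosomal proteins had a median log2 change of 0.07, with 49 higher and 33 lower on average, and the median was -0.03 without DMSO replicate 3. The 76 tested genes of mitochondrial ribosomal proteins had a median of 0.19, with 61 higher on average. Without overlap, 37 mitochondrial genes were higher and 1 lower, and 13 cytosolic genes were higher and 9 lower. Of all genes, 12.9% were higher and 10.7% lower without overlap. No test of the difference between these lists and the assembly genes was made.

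**Figure D5:**
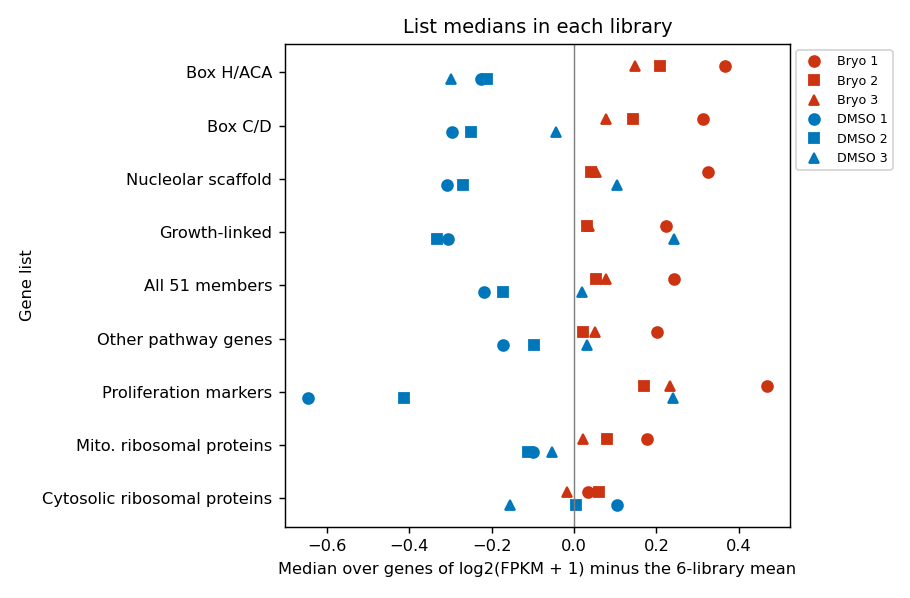
Median over each gene list of log2(FPKM + 1) minus the mean of the 6 libraries (x axis), with bryostatin libraries drawn above DMSO libraries in each row. DMSO replicate 3 lies at -0.30 for box H/ACA genes, at 0.24 for growth-linked genes and at 0.24 for proliferation markers.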

How the data were processed

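Polyadenylated RNA of 6 Raji libraries was sequenced, 3 per treatment, grouped by the treatment label. The authors deposited FPKM values, scaled by gene length and library size. Per the submitters' processing notes, the build was hg38 and the tools included HISAT2 2.0.5 and featureCounts 1.5.0-p3, along with CASAVA and DESeq2 1.20.0, without a role for each. Annotation release, strand setting and filters were not given in the sources used here. All 58735 gene coordinates equal those of GENCODE 29.

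Reads per gene were recovered by multiplying FPKM with gene length, after which every library showed whole steps (100% of values, tolerance 0.001 reads); 3 reads, the limit a count of 0 allows, were 0.123 to 0.155 CPM, counting error only. The 11071 genes whose mean reached 1 FPKM were compared as log2(FPKM + 1), a scale that understates changes of low genes, with limma 3.58.1 in R 4.3.3 (moderated test with intensity trend, two-sided, Benjamini-Hochberg, threshold 0.05). An exact permutation test of 3 against 3 cannot go below 0.1. The fit was tested on simulated data. No library pair differed by sampling noise alone (chi-square of at least 11.6 per gene).

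Members and lists were chosen with earlier results of these data known, so no list was tested. Library values are given for 6 fixed members, for the 2 smallest p and the highest level per role group, for the 2 smallest p per pathway list, and for MYC and MKI67; values of other genes, E-box stretches at or after the start, the motifs other than CACGTG and the ribosomal-protein lists were added after they were seen. Role groups and exon overlaps came from textbook knowledge and GENCODE, and promoters from RefSeq. Alternatives covered pseudocount, filter, scaling, length trend, moderation, voom weights, replicate block and each library left out.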

Additional observations from a re-analysis of the deposited data

How the results depend on the processing

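The median log2 change of the members stayed between 0.16 (quantile normalisation) and 0.31 (without DMSO replicate 3), and 47 to 49 of 51 were higher on average in each alternative run. The number of members at an unadjusted p under 0.05 was 11 with quantile normalisation, 15 with TPM and 23 with voom weights, against 21, and 11 to 36 with a library left out. Over all genes tested, 893, 848 and 1152 were higher at that p in those runs, in the same order, against 1159. With a library left out, 560 to 1730 of all genes were higher. Calls over all genes were 1 with a pseudocount of 0.1 and 1 with TPM, against 0, and 0 to 267 with a library left out. Calls among members were 0 to 2 with a library left out and 0 in the other alternatives. Members without overlap numbered 22 to 45 in the 2 omissions added after the data were seen. Quantile normalisation gave medians of 0.38 for box H/ACA, 0.14 for 60S and 0.053 for polyamine genes; the cause was not tested. The polyamine median was 0.12 to 0.26 with a library left out. NOB1 ran from -0.19 to 0.027 and MKI67 from -0.0062 to 0.34 with a library left out. With the length trend removed the members had a median of 0.22.

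With the replicate number as a block, 0 genes passed, the members' median was 0.25, and an unadjusted p under 0.05 was reached by 12 members and by 1191 genes instead of 1954. Deviations from the group mean correlated at -0.29, -0.32 and -0.11 for same-numbered libraries and at -0.0644 to 0.315 for differently numbered ones. Deviations within a group depend on each other, so these values cannot settle whether any libraries were handled together. With 3 libraries per group, and 257 reads or more on each tested member, the spread between libraries rather than counting limited the comparison.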

Other observations

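Shorter genes tended to higher values with bryostatin over the whole table. Across the 11071 tested genes, the log2 change correlated with log2 gene length at a Pearson r of -0.157 (Spearman rho -0.226), and across the 51 tested members at -0.195 (rho -0.209). Genes are not independent replicates, and all share the same 6 libraries. With a limit of 2500 bases, chosen after the data were seen, the 11 shorter tested members, among them NOP10, NHP2 and GAR1, had a median log2 change of 0.28, and the 40 longer ones 0.22. With the length trend removed, the medians were 0.22 and 0.22, and over all 2786 tested genes within that limit the median was 0.03 instead of 0.09. GAR1 and NHP2 then had log2 changes of 0.65 and 0.53.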
